A study of Mus musculus with 30 samples.

Results

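Loss of Myc on top of loss of Rb was examined in small intestinal villi, by setting the 5 Rb/Myc double knockout (DKO) villus arrays against the 5 Rb knockout (Rb KO) villus arrays. These 10 arrays were chosen by their titles, out of 30 in the series, and all genes were tested within this tissue. DKO villi came from adult mice, 2 months old, 5 days after both Rb1 and Myc had been ablated. Rb KO villi came from mice of the same age and at the same time after ablation of Rb1 alone. By these labels both groups lack Rb and differ in Myc, and whether they differ in background as well is not given. The deleting enzyme was Ah-cre, an inducible Cre recombinase active in the intestine whose promoter (that of the Cyp1a1 gene) is known to respond to xenobiotics. Cells in which this Cre is not active keep both genes. Control villi, 5 further arrays at the same age and time, carry neither deletion and are given as background. The labels do not say whether the controls carried the Cre, whether each array is a separate animal, or on which strain background the alleles stood, and p-values therefore measure the spread between these samples.

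Myc encodes a transcription factor that pairs with MAX at the E-box sequence and is known to drive ribosome production, protein synthesis and cell growth. In the intestine it is expressed mainly in the dividing cells of the crypts, under Wnt signalling, and little in the villus, whose cells have normally left the cell cycle. The retinoblastoma protein holds back the E2F transcription factors, and villus cells without it are known to re-enter the cell cycle.

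Values are log2 expression per probe set, differences are DKO minus Rb KO villi on that log2 scale with their standard error (SE). Adjusted p-values come from two-sided limma tests with Benjamini-Hochberg adjustment over 14557 genes. Array medians lay between 6.28 and 6.32 in DKO villi and between 6.28 and 6.34 in Rb KO villi, and any 2 arrays of a group correlated between 0.9816 and 0.996. The 14 measured markers of enterocytes, the absorptive cells, summed to log2 values of 17.96 to 18.05 in DKO villi and 17.87 to 18.14 in Rb KO villi. No crypt sum was set beside these, so they compare the 2 groups and do not check the villus label. A mean of 9 crypt markers, relative to the villus mean, stood at 0.119, -0.195, 0.164, 0.985 and 0.57 in DKO villi, against 0.118, -0.16, -0.509, 0.781 and 0.077 in Rb KO villi. The crypt marker score thus overlapped between the groups (exact permutation p = 0.373, two-sided), with DKO 4 and Rb KO 4 highest. Its markers are genes of stem and Paneth cells. In crypts 11 of 25 stem and 7 of 15 Paneth genes were higher in DKO than in Rb KO arrays, beside 4.99% of all genes. The score therefore cannot tell crypt content from a difference of genotype in such genes. By Xist, the transcript of the inactive X chromosome, DKO 4 and 5 and Rb KO 3 were female. In such bulk arrays fewer cells of a type and less RNA per cell cannot be told apart.

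The targeted genes were read first. Myc stood at 6.83, 6.49, 6.74, 6.94 and 6.80 in DKO villi, against 7.39, 7.42, 6.98, 7.48 and 7.16 in Rb KO villi. All 5 DKO arrays lay below all 5 Rb KO arrays. The difference was -0.52 ± 0.21, with an exact permutation p of 0.00794, the smallest that 5 against 5 arrays can give, but with an adjusted p of 0.145 in limma it did not pass the threshold of 0.05 over all genes. Control villi averaged 7.06 ± 0.60 (SD, n = 5), and overlapped both groups. In crypts of the same study the DKO minus Rb KO difference of Myc was -1.60 (adjusted p = 1.83e-05). Rb1 stood at 8.25, 8.66, 8.53, 8.39 and 8.52 in DKO villi, against 8.34, 8.19, 8.30, 8.28 and 8.23 in Rb KO villi, and the groups overlapped. The difference of Rb1 was 0.20 ± 0.16 (adjusted p = 0.464), with an exact permutation p of 0.0397 as higher in DKO villi. Control villi averaged 9.73 ± 0.45 for Rb1. Whether the probe sets lie inside the deleted exons was not tested, and the level that remains is no measure of how much of either gene was deleted.

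The other 12 measured genes of the Myc family and the MAX network, which hold MYC's partner, its relatives and its antagonists, moved little in villi. On the probe set read for each gene none passed the threshold in limma, beside 8.06% of all genes. Their differences lay between -0.24 and 0.29 and their lowest adjusted p was 0.0753, and of the 13 genes with Myc 1 was higher and 2 lower at an unadjusted p under 0.05. Dimmer probe sets of Mxd3 (-0.30, adjusted p = 0.00383) and Mycn (-0.31, adjusted p = 0.0266) did pass in limma over all probe sets. The remaining ones did not, at -0.18 for Mxd3 (adjusted p = 0.216) and 0.17 for Mycn (adjusted p = 0.354). Max, the obligate partner, differed by 0.14 ± 0.27 and Mxi1, a MAX partner that opposes MYC, by 0.29 ± 0.14 (adjusted p = 0.224).

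**Figure D1:**
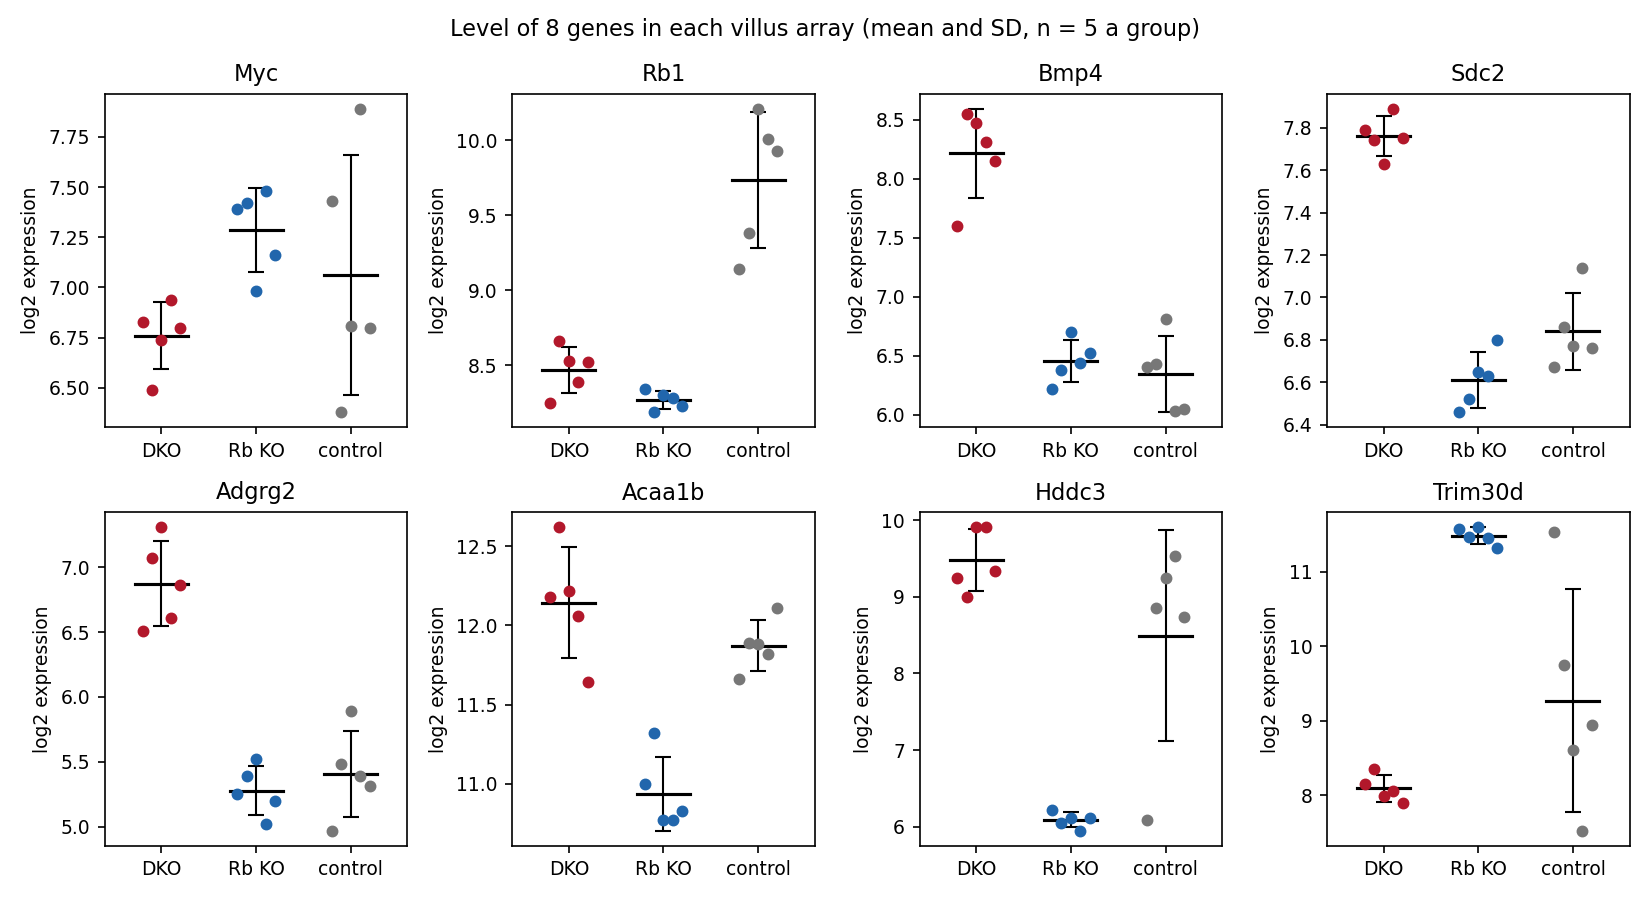
Level of 8 genes in each villus array, log2 expression on the vertical axis (each panel has its own range), with DKO left, Rb KO in the middle and control right; points are arrays, the long bar the mean and the whiskers the SD (n = 5 a group). DKO arrays lie below Rb KO arrays for Myc, overlap them for Rb1, lie above them for Bmp4, Sdc2, Adgrg2, Acaa1b and Hddc3, and below them for Trim30d, and for Hddc3 and Trim30d 1 control array sits with the Rb KO arrays.

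Across all genes the comparison was lopsided towards genes that were higher without Myc. Of 14557 genes, 1173 (8.06%) passed the threshold, 878 of them higher in DKO villi (6.03%) and 295 lower (2.03%). Most differences were small, with a median of 0.45 among the higher genes and -0.33 among the lower ones, and 54 genes rose (0.371%) and 11 fell (0.0756%) by at least 2-fold. The 5 DKO arrays lay above all 5 Rb KO arrays for 905 genes (6.22%) and below them for 440 (3.02%), together 9.24% of genes, and 646 of the called higher genes and 229 of the called lower genes were apart in this way. The count rested on single arrays: it was 572 without DKO 3, 680 without DKO 2, 728 without DKO 4, 777 without Rb KO 4 and 583 without Rb KO 4 and 5 together. The share of higher genes was 74.9%, but 64.8% after quantile normalization and 56.9% with the crypt marker score in the model, where 2546 genes passed (1448 higher, 1098 lower).

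**Figure D2:**
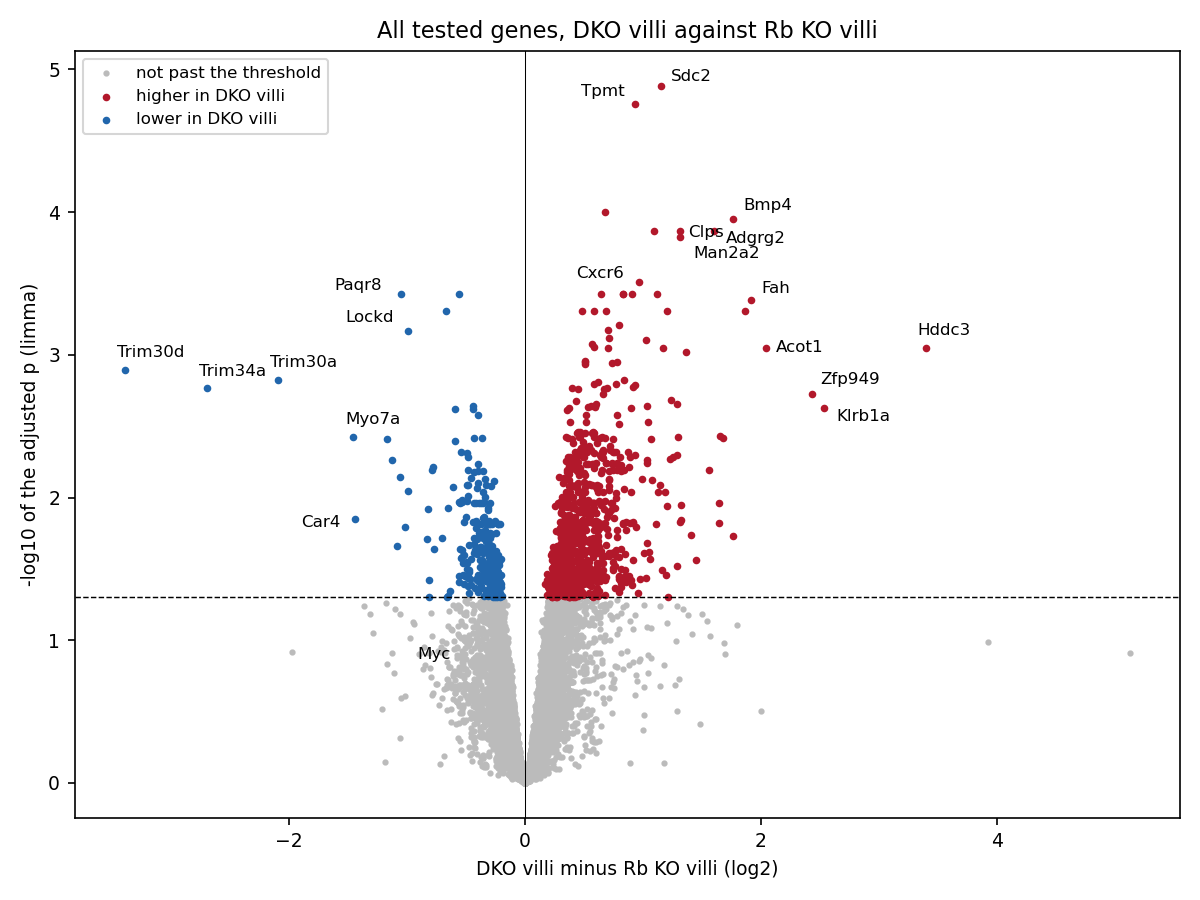
Each point is 1 of 14557 genes, with the DKO minus Rb KO villus difference (log2) on the horizontal axis and -log10 of the limma adjusted p on the vertical axis; the dashed line is an adjusted p of 0.05. There are 878 genes above the line on the higher side and 295 on the lower side, and Myc lies below the line at -0.52.

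Genes of ribosome production, the best known output of MYC, were slightly lower in DKO villi as a group, but none passed the threshold singly in limma. Of 64 measured genes of ribosome biogenesis 62 had a negative difference, with a median of -0.21 (median of all genes -0.005), 0 passed, and 13 were lower and 0 higher at an unadjusted p under 0.05. Of 43 cytosolic ribosomal protein genes all 43 had a negative difference, with a median of -0.36, 0 passed, and 20 were lower at an unadjusted p under 0.05. The mean of the ribosomal protein genes, relative to control villi, ranged from -0.28 to 0.11 in DKO villi and from 0 to 0.41 in Rb KO villi, which overlap, and control villi ranged more widely, from -0.49 to 0.59. With the crypt marker score in the model 38 of 64 and 38 of 43 passed as lower, but that score may itself follow genotype. In crypts 46 of the 64 and 35 of the 43 fell with Myc loss, beside 7.03% of all genes.

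Single genes of this machinery show the small size of the shift; those named in this paragraph were picked after their values were seen, apart from Taf1d, Taf1b, Mrps24 and Mrpl14. Mybbp1a, a nucleolar protein that works in ribosomal RNA synthesis, stood at 8.62, 8.55, 8.63, 8.64 and 8.62 in DKO villi, against 8.87, 8.98, 8.77, 9.06 and 9.04 in Rb KO villi. Its groups were fully apart, yet the difference of -0.33 ± 0.10 missed the threshold (adjusted p = 0.0541). Nop56, a core protein of the particles that methylate ribosomal RNA, differed by -0.52 ± 0.22 (adjusted p = 0.158), and Ncl, nucleolin, by -0.35 ± 0.25 (adjusted p = 0.405), both with overlapping groups. Of 30 genes of RNA polymerase I and III 10% passed, beside 8.06% of all genes. Taf1d, a subunit of the polymerase I selectivity complex, was among the 2 that fell (-0.56 ± 0.15, adjusted p = 0.0388). Taf1b, another subunit of it, was the 1 that rose (0.41 ± 0.09, adjusted p = 0.0158). Against the direction of the cytosolic ribosome, the mitochondrial ribosomal protein genes Mrps24 (0.68 ± 0.12, adjusted p = 0.00381) and Mrpl14 (0.45 ± 0.07, adjusted p = 0.00174) rose. They were the only 2 of 73 that passed (2.74%, beside 8.06% of all genes). The 8 genes of the CCT chaperonin, which folds actin and tubulin, had a median of -0.28, and the 43 translation factors one of -0.13, with 0 passing in limma in either list (4 and 7 lower, 0 and 1 higher at an unadjusted p under 0.05).

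The E-box was read in the start-site windows of RefSeq (GRCm38.p6, 250 bases before to 50 after each gene's start, 11670 of 14557 genes with a window). The 6 bases CACGTG, which read the same on both strands, were found in 9.49% of all windows. They were found in 12 of 235 genes that fell (5.11%), in 64 of 705 that rose (9.08%) and in 13 of 56 ribosome biogenesis genes (23.2%). A match is a description of these letters, not of binding. The windows of Mybbp1a and of Ankrd12 are shown because Mybbp1a is the ribosome production gene discussed above and Ankrd12, a protein that binds nuclear receptor coactivators, holds the motif 2 times and fell; CACGTG is in capitals and both are written along the gene's own strand.
Mybbp1a, chr11:72441077-72441376, plus strand: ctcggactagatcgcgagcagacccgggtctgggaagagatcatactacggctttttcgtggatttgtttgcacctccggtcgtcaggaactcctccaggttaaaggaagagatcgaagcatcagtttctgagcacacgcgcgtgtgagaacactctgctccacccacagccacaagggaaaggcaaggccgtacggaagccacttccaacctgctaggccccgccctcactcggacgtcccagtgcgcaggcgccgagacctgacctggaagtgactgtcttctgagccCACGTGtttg
Ankrd12, chr17:66076997-66077296, minus strand: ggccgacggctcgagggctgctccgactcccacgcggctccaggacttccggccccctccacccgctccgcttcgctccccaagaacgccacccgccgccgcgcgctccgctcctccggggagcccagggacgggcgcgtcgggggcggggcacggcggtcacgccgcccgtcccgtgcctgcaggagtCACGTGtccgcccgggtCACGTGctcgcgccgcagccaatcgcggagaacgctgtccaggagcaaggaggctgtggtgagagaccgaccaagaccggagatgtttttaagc
Ankrd12 stood at 9.25, 9.31, 9.15, 9.20 and 9.29 in DKO villi, against 9.84, 9.74, 9.73, 9.90 and 9.81 in Rb KO villi, with no overlap. It fell by 0.56 (difference -0.56 ± 0.07, adjusted p = 0.000377), and was picked after its values were seen.

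Transcripts of cell division leaned lower in DKO villi, but few passed. Of 57 genes of G2/M and mitosis 56 had a negative difference, with a median of -0.53, and 4 fell (7.02%, beside 2.03% of all genes): Cenpm, Ndc80 and Nuf2 of the centromere and kinetochore, and Smc4 of condensin. Cenpm stood at 7.14, 7.24, 7.51, 7.53 and 7.43 in DKO villi, against 7.67, 7.71, 7.66, 7.97 and 7.92 in Rb KO villi, a difference of -0.42 ± 0.09 with no overlap (adjusted p = 0.011). Nuf2 differed by -0.81 ± 0.23 (adjusted p = 0.0379), Smc4 by -0.53 ± 0.14 (adjusted p = 0.0287) and Ndc80 by -0.49 ± 0.13 (adjusted p = 0.0317). The proliferation marker Mki67, picked after its values were seen, stood at 9.58, 10.27, 10.36, 10.69 and 10.84 in DKO villi, against 11.14, 10.84, 10.97, 11.50 and 11.34 in Rb KO villi. The 2 groups touched at 10.84 to 2 decimals, and the difference of -0.81 ± 0.34 did not pass (adjusted p = 0.156). Control villi averaged 8.01 for Mki67, far below both.

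The mean of the G2/M list relative to control villi ranged from 0.46 to 1.54 in DKO villi and from 1.23 to 1.84 in Rb KO villi, with control villi from -0.48 to 0.66. The high DKO arrays, 4 and 5, are those with the highest crypt marker scores of their group. With that score as a covariate 46 of the 57 passed as lower, and without Rb KO 4 and 5 together 0 did. The number was 1 without any of DKO 1, 2 and 3 or Rb KO 1, 4 and 5, and 6 without DKO 5. Among 57 genes of DNA replication and the G1/S step 53 had a negative difference (median -0.26) and 2 fell (3.51%, beside 2.03% of all genes): Pold3, a subunit of DNA polymerase delta, by 0.66 (difference -0.66 ± 0.14, adjusted p = 0.0118) and Fen1, the flap endonuclease, by 0.38 (difference -0.38 ± 0.09, adjusted p = 0.0223). With the crypt marker score 30 passed as lower, without DKO 5 6 did, and without Rb KO 4, DKO 1 or DKO 3 1 did. The replication score ranged from 1.45 to 1.97 in DKO villi and from 1.87 to 2.12 in Rb KO villi, and control villi lay at -0.25 to 0.43, and every array of both knockout groups lay above every control array. Set against control villi, 54 of the 57 were higher in DKO villi and 55 of the 57 in Rb KO villi, beside 11.2% and 14.6% of all genes; both comparisons share the control arrays.

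Of 17 other E2F, pocket protein and DREAM complex genes measured, 3 passed (8.06% of all genes did), with differences over the list from -0.58 to 0.53. Rbl2, the pocket protein p130 of resting cells, stood at 8.52, 8.48, 8.45, 8.56 and 8.52 in DKO villi, against 8.13, 8.38, 8.02, 7.45 and 7.91 in Rb KO villi. It rose by 0.53 ± 0.14 with no overlap (adjusted p = 0.0287). This call was lost without Rb KO 5 and without any single DKO array. Lin52, a DREAM subunit, fell by 0.24 (difference -0.24 ± 0.06, adjusted p = 0.0325), as did E2f5, a repressive E2F, by 0.24 (difference -0.24 ± 0.07, adjusted p = 0.0481). E2f2, an activating E2F, differed by -0.29 ± 0.22 (adjusted p = 0.44) and E2f7, a repressive one, by -0.58 ± 0.25 (adjusted p = 0.165).

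Among 12 G1 cyclins and CDK inhibitors 2 passed (16.7%, beside 8.06% of all genes), both as higher and both about 2-fold. Cdkn1b, the CDK inhibitor p27, stood at 10.03, 9.95, 9.60, 9.63 and 9.80 in DKO villi, against 8.63, 8.45, 8.48, 9.01 and 8.61 in Rb KO villi, a difference of 1.17 ± 0.16 with no overlap (adjusted p = 0.000889). Its level in control villi averaged 9.49, but control 1, at 8.91, lay within the Rb KO range, and controls 2 to 5 stood at 9.34 to 9.82. Another, dimmer Cdkn1b probe set differed by -0.22 (adjusted p = 0.414). Ccnd2, cyclin D2, which activates CDK4 and CDK6, stood at 10.11, 10, 10.44, 10.93 and 10.79 in DKO villi, against 9.26, 9.65, 9.09, 9.45 and 9.17 in Rb KO villi, and rose by 1.13 ± 0.23 (adjusted p = 0.00914). The long noncoding RNA Lockd, which lies next to Cdkn1b, moved the other way, by -0.99 ± 0.13 (adjusted p = 0.000676). Ccnd2 lies next to Tigar, which also passed as higher (0.44). On their other sides Cdkn1b and Ccnd2 each have a further gene past the threshold as higher. The part of gene position in these rises was not tested. Cdkn1a, the CDK inhibitor p21, differed by -0.13 ± 0.10 (adjusted p = 0.447; picked after its values were seen).

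Of 22 targets of p53, 3 rose and 1 fell (18.2%, beside 8.06% of all genes). Ccng1, cyclin G1, rose by 0.52 ± 0.13 (adjusted p = 0.0236) and Rrm2b, a ribonucleotide reductase subunit induced by DNA damage, by 0.47 ± 0.11 (adjusted p = 0.0204), while Tnfrsf10b, a death receptor for TRAIL, fell by 0.40 (difference -0.40 ± 0.07, adjusted p = 0.0058). Tigar, which redirects glucose from glycolysis, rose by 0.44 ± 0.09 (adjusted p = 0.00842), but another of its probe sets was called the other way, at -0.48 (adjusted p = 0.0316). Of these rises, Tigar lies next to Ccnd2, and Rrm2b is 1 of 7 called genes among the 40 around Sdc2. The part of gene position was not tested. Protein folding genes leaned lower: 26 of 31 heat shock and unfolded protein response genes had a negative difference (median -0.19) and 3 fell (9.68%, beside 2.03% of all genes). They were Creld2 (-0.71 ± 0.17, adjusted p = 0.0193) and Sdf2l1 (-0.49 ± 0.13, adjusted p = 0.0287), both of the endoplasmic reticulum, and the cytosolic chaperone Hsp90aa1 (-0.40 ± 0.11, adjusted p = 0.0387). Only 1 of these 3 calls was left without Rb KO 4, Rb KO 5, DKO 1, DKO 2 or DKO 3. Of 25 genes of cholesterol synthesis and uptake 2 fell (8%, beside 2.03% of all genes), Idi1 (-0.49 ± 0.13, adjusted p = 0.0356) and Pmvk (-0.39 ± 0.11, adjusted p = 0.0391), both of the isoprenoid steps. The number was 1 without Rb KO 2 or Rb KO 3 and 0 without Rb KO 4 or Rb KO 5 or without DKO 1, 2, 3 or 4. The list's median was -0.24 with all arrays and -0.06 without Rb KO 4 and 5 together.

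**Figure D3:**
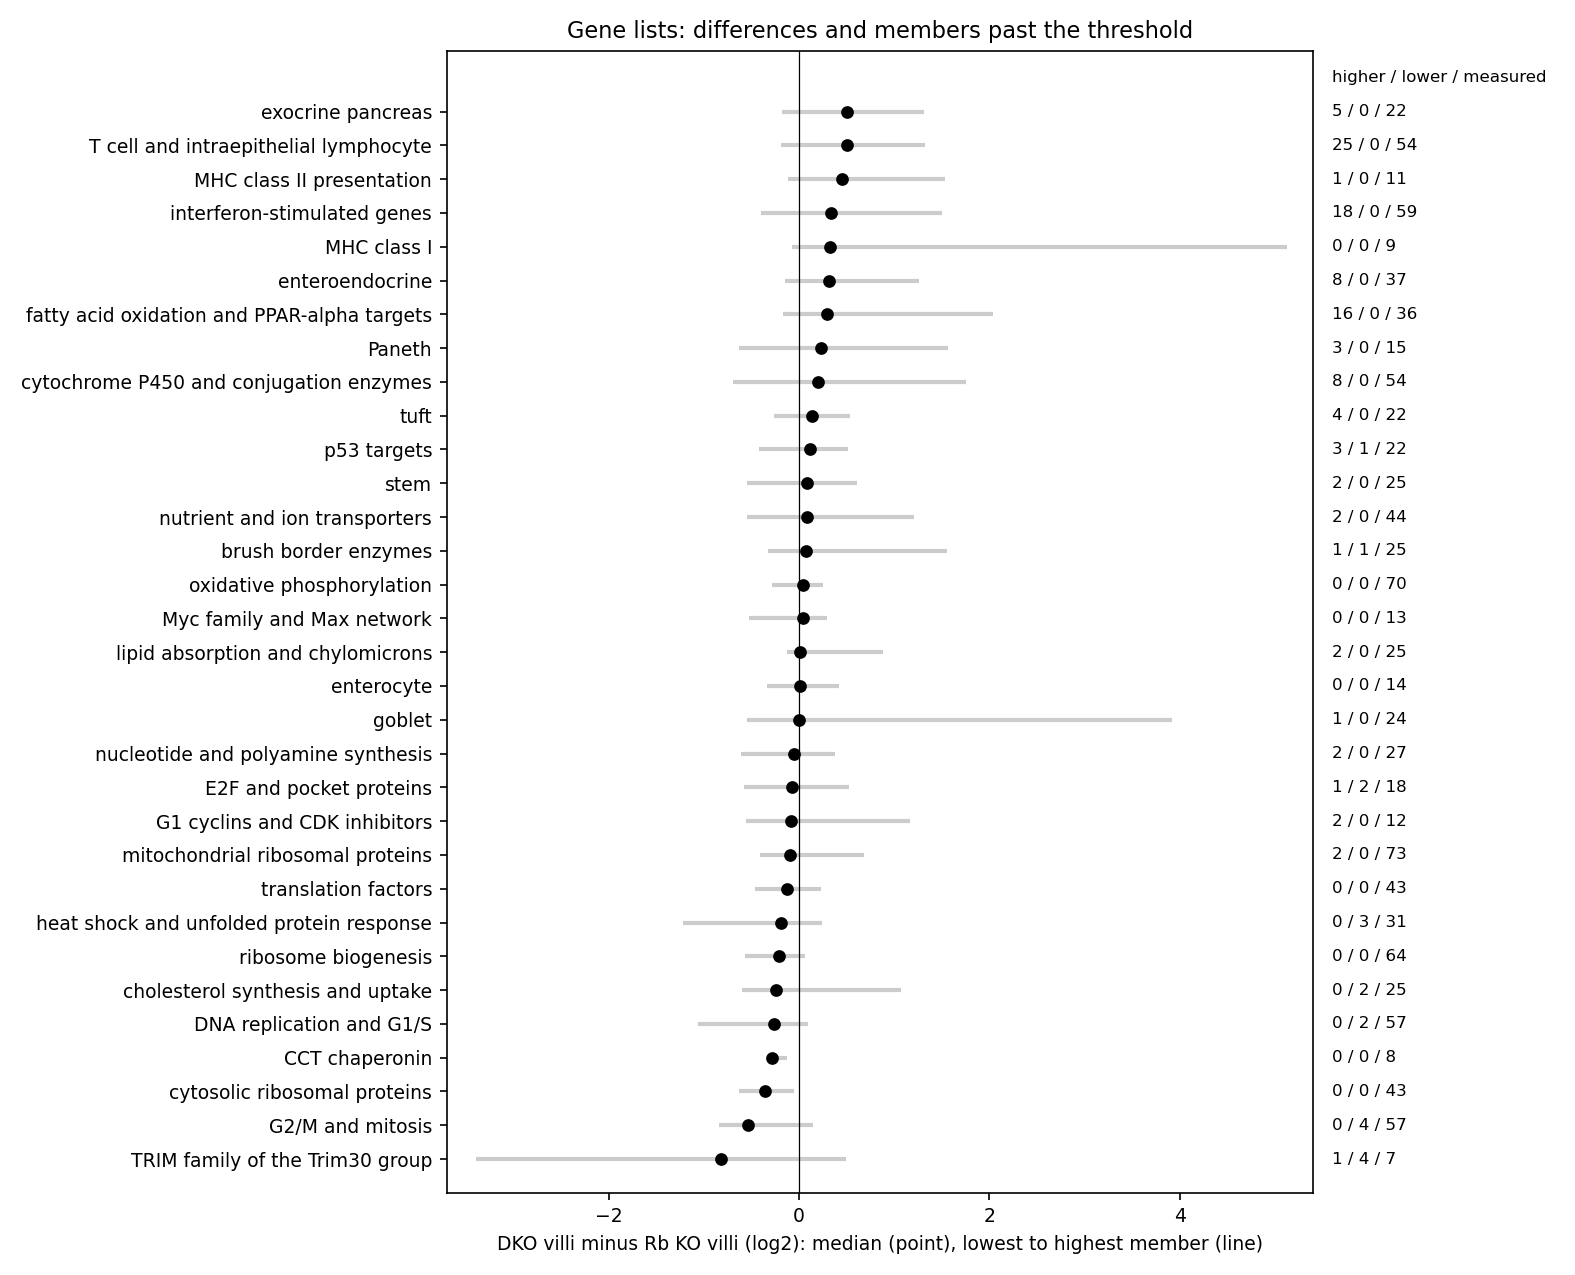
Median difference (point) and lowest to highest member (line) of 32 gene lists, DKO minus Rb KO villi in log2, with the numbers of members higher and lower past the threshold and measured at the right. Lists of lymphocytes, interferon-stimulated genes, enteroendocrine cells and fatty acid oxidation lie on the higher side with 25, 18, 8 and 16 members past the threshold, and mitosis and ribosomal protein lists on the lower side with 4 and 0.

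Fatty acid oxidation genes and targets of PPAR-alpha, the nuclear receptor that switches on fat burning, were higher in DKO villi. Of 36 measured 16 rose (44.4%, beside 6.03% of all genes) and 0 fell, 15 were apart as higher (6.22% of all genes were), and the median difference was 0.29. Acaa1b, a peroxisomal thiolase that completes a round of beta-oxidation, stood at 12.18, 12.62, 12.22, 12.06 and 11.64 in DKO villi, against 11, 11.32, 10.77, 10.77 and 10.83 in Rb KO villi. No DKO array overlapped the Rb KO arrays, and the gene rose by 1.21 ± 0.15 (adjusted p = 0.000497). Acot1, a cytosolic acyl-CoA thioesterase, stood at 8.40, 9.33, 9.04, 8.28 and 7.64 in DKO villi, against 6.66, 6.75, 6.01, 6.65 and 6.41 in Rb KO villi. It rose by 2.04 ± 0.28 (adjusted p = 0.000889), and its mitochondrial neighbour and near-copy Acot2 by 0.84 ± 0.12 (adjusted p = 0.0015); cross-hybridisation between such copies was not tested.

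Decr2, a peroxisomal reductase for unsaturated fatty acids, rose by 0.69 ± 0.10 (adjusted p = 0.00172). Vnn1, pantetheinase, a known PPAR-alpha target on the epithelial surface, stood at 12.29, 12.42, 12.03, 11.84 and 11.46 in DKO villi, against 11.19, 10.47, 11.13, 9.59 and 9.43 in Rb KO villi, and rose by 1.64 ± 0.34 (adjusted p = 0.011). Further members were picked after their values were seen. Acadl, long-chain acyl-CoA dehydrogenase, rose by 0.47 ± 0.08 (adjusted p = 0.00374), Hadhb, the beta subunit of the mitochondrial trifunctional protein, by 0.31 ± 0.07 (adjusted p = 0.0128), and Cpt2, which rebuilds acyl-CoA inside mitochondria, by 0.32 ± 0.08 (adjusted p = 0.0199). Angptl4, a secreted lipoprotein lipase inhibitor, rose by 1.29 ± 0.33 with overlapping groups (adjusted p = 0.0301). Cpt1a, the gate of mitochondrial import, differed by 0.35 ± 0.11 and did not pass (adjusted p = 0.0643).

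The list's mean relative to control villi ranged from -0.18 to 0.09 in DKO villi and from -0.53 to -0.37 in Rb KO villi, with control villi from -0.02 to 0.02, so the 2 groups were apart and the DKO arrays stood around the control level. Against control villi 10 of the 36 were lower and 2 higher in DKO villi (5.89% and 11.2% of all genes were), and 25 were lower in Rb KO villi (15.9%). These comparisons share arrays. Leaving out 1 array gave 10 to 17 members, with 10 without DKO 4, and leaving out Rb KO 4 and 5 together gave 10. The 70 genes of oxidative phosphorylation showed 0 calls in limma (median 0.04, with 6 higher and 1 lower at an unadjusted p under 0.05). Of 25 genes of fat absorption and chylomicrons 2 rose (8%, beside 6.03% of all genes). They were the fatty acid transporter gene Cd36 (0.64 ± 0.17, adjusted p = 0.0356) and the apolipoprotein gene Apoc2 (0.26 ± 0.07, adjusted p = 0.0358). AGGTCA, any base, AGGTCA, a direct repeat of the kind nuclear receptor pairs bind, was searched on both strands. It was found in 0 of the 31 fatty acid oxidation and PPAR-alpha genes that have a window. Only 5 of all 11670 windows hold it (0.0428%), too few for a list of this size to show presence or absence of such sites.

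Some enzymes that handle foreign compounds were higher as well. Ah-cre is itself switched on by such a compound, and the part of the inducer in these genes was not tested. Of 54 cytochrome P450 and conjugation genes 8 rose (14.8%, beside 6.03% of all genes) and 0 fell, with 45 positive differences (median 0.20). Cyp4b1, which oxidises fatty acids and some xenobiotics, stood at 12.01, 12.33, 12.28, 11.95 and 11.95 in DKO villi, against 10.27, 10.85, 10.83, 10.96 and 10.79 in Rb KO villi. It rose by 1.36 ± 0.19 with no overlap (adjusted p = 0.000954). Gstm4, a glutathione transferase, stood at 10.07, 9.98, 10.06, 10.05 and 10 in DKO villi, against 8.84, 9.23, 9, 9.52 and 9.05 in Rb KO villi, a rise of 0.90 ± 0.18 (adjusted p = 0.00914). The Cyp2c genes, which lie side by side and resemble each other, rose by 1.76 ± 0.41 for Cyp2c29 (adjusted p = 0.0187) and 0.50 ± 0.10 for Cyp2c65 (adjusted p = 0.00773).

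Few absorptive genes passed, at shares near or below that of all genes in 3 of 4 lists. The 14 enterocyte markers had a median of 0.01 and 0 calls in limma (3 higher and 1 lower at an unadjusted p under 0.05), 2 of 44 nutrient and ion transporters rose (4.55%), and of 25 brush border enzymes 1 rose and 1 fell (8%, beside 8.06% of all genes). Of 15 carbonic anhydrases and aquaporins 3 rose and 1 fell (26.7%). Cubn, cubilin, the receptor for vitamin B12 with intrinsic factor, stood at 9.94, 9.61, 9.28, 10.15 and 9.27 in DKO villi, against 7.95, 7.85, 9.26, 8.58 and 8.57 in Rb KO villi, a rise of 1.21 ± 0.36 (adjusted p = 0.0495). Naaladl1, a brush border peptidase, rose by 1.56 ± 0.29 (adjusted p = 0.00643), and Aqp11, an intracellular aquaporin, by 0.92 ± 0.14 (adjusted p = 0.00167). Car4, a membrane-bound carbonic anhydrase of the brush border, went the other way, at 8.03, 8.29, 8.61, 8.70 and 9.33 in DKO villi, against 9.53, 9.60, 9.67, 10.48 and 10.89 in Rb KO villi. Car4 fell by 1.44 (difference -1.44 ± 0.32, adjusted p = 0.0141), with a control mean of 10.45. Slc28a3, a concentrative nucleoside transporter, fell by 1.12 (difference -1.12 ± 0.21, adjusted p = 0.00546), also with controls (8.52) near the Rb KO level.

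Interferon-stimulated genes were higher in DKO villi. Of 59 measured 18 rose (30.5%, beside 6.03% of all genes), 0 fell and 55 had a positive difference, with a median of 0.34. Ifit3, an antiviral protein induced by type I interferon, stood at 8.55, 8.22, 8.52, 7.97 and 7.80 in DKO villi, against 7.32, 7.59, 7.5, 7.02 and 7.15 in Rb KO villi. The arrays were apart and the gene rose by 0.90 ± 0.14 (adjusted p = 0.00236). Gbp6, an interferon-gamma induced GTPase, rose by 0.84 ± 0.16 (adjusted p = 0.00646), Ifi27 by 0.52 ± 0.08 (adjusted p = 0.00266) and Lgals3bp, a secreted galectin ligand, by 0.45 ± 0.09 (adjusted p = 0.00786). Stat2, which carries the type I interferon signal to the nucleus, stood at 8.46, 8.56, 8.43, 8.37 and 8.36 in DKO villi, against 7.57, 8.09, 8.23, 6.74 and 7.73 in Rb KO villi, and rose by 0.76 ± 0.20 (adjusted p = 0.0301; this and the next 2 genes were picked after their values were seen). Oas1a, a sensor of double-stranded RNA with several near-copies, rose by 0.65 ± 0.16 (adjusted p = 0.0259) and Usp18, which damps interferon signalling, by 0.92 ± 0.20 (adjusted p = 0.0149), both with overlapping groups.

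The pattern GAAA, any 2 bases, GAAA, the core of the interferon-stimulated response element, was searched on both strands of the same windows and chosen after values were seen. It was found in 2.93% of all windows, in 19 of 44 interferon-stimulated genes that have a window (43.2%), and in 8 of the 13 among them that rose (61.5%). The windows of 3 that rose are shown, as examples of the pattern in the list, with the matches in capitals (TTTC, any 2 bases, TTTC where the match is on the other strand).
Ifit3, chr19:34583279-34583578, plus strand: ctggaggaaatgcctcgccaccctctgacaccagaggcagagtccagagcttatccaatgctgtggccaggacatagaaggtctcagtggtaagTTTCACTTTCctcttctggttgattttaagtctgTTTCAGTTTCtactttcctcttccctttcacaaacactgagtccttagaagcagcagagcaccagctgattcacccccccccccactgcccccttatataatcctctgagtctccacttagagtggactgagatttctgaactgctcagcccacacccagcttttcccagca
Oas1a, chr5:120907476-120907775, minus strand: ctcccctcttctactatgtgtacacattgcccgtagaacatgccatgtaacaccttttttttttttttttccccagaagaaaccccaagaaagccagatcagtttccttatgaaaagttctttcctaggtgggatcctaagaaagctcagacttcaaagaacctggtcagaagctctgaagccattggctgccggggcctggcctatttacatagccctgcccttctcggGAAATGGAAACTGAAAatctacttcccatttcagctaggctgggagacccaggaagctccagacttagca
Stat2, chr10:128270248-128270547, plus strand: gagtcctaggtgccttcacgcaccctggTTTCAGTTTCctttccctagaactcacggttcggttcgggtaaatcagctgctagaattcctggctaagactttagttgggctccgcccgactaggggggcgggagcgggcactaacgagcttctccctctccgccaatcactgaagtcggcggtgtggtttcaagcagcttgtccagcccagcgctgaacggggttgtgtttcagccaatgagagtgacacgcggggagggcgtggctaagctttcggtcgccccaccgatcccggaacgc
Ifit3 and Oas1a have 2 matches each and Stat2 has 1. The mean of the interferon list relative to control villi ranged from 0.06 to 0.25 in DKO villi and from -0.52 to 0.09 in Rb KO villi, with control villi from -0.24 to 0.16. The ranges touch through Rb KO 3, and Rb KO 4 and 5 were lowest. Without those 2 arrays together 5 of the 59 passed. Single arrays mattered too: 6 passed without DKO 3 and without Rb KO 5, 7 without Rb KO 4, 9 without DKO 1, DKO 2 or Rb KO 2, 10 without DKO 4 and 11 without DKO 5.

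Markers of T cells and intraepithelial lymphocytes, immune cells that sit within the villus epithelium, were the list with the most genes past the threshold in this comparison. Of 54 measured 25 rose (46.3%, beside 6.03% of all genes) and 0 fell, 23 were apart as higher (6.22% of all genes were) and 51 had a positive difference, with a median of 0.50. Itgae, the integrin chain CD103 that anchors these cells to the epithelium, stood at 10.42, 10.36, 10.41, 10.21 and 10.79 in DKO villi, against 9.82, 10.01, 9.72, 9.21 and 9.53 in Rb KO villi. It rose by 0.78 ± 0.14 with no overlap (adjusted p = 0.00574). Cd244a, a receptor of killer cells, rose by 0.67 ± 0.10 (adjusted p = 0.00174), Ctsw, a cathepsin of cytotoxic cells, by 0.75 ± 0.14 (adjusted p = 0.00646) and Cd52 by 0.71 ± 0.14 (adjusted p = 0.00736).

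Others were picked after their values were seen. Ptprc, the pan-leukocyte marker CD45, stood at 10.16, 10.14, 10.31, 10.26 and 10.60 in DKO villi, against 9.64, 10.02, 9.79, 9.30 and 9.70 in Rb KO villi (rise of 0.60 ± 0.13, adjusted p = 0.0128). Nkg7, a granule protein of cytotoxic cells, rose by 1.32 ± 0.28 (adjusted p = 0.0112), and Cxcr6, a chemokine receptor of tissue-resident T cells, by 0.96 ± 0.11 (adjusted p = 0.00031). Both were apart. The list's mean relative to control villi ranged from -0.10 to 0.15 in DKO villi and from -0.66 to -0.25 in Rb KO villi, with control villi from -0.25 to 0.21, so the Rb KO arrays stood low. Against control villi 0 of the 54 were lower in DKO villi (5.89% of all genes were) and 35 in Rb KO villi (15.9%), and both comparisons share the control arrays. Rb KO 4 and 5 were the lowest, and 15 of the 54 passed without either one, 6 without both, and 16 without DKO 3. Whether the number of lymphocytes or their RNA per cell differed cannot be told apart.

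Other immune lists had few genes past the threshold. Of 20 B and plasma cell genes 2 rose (10%, beside 6.03% of all genes), Cd79b of the B cell receptor (0.51 ± 0.13, adjusted p = 0.0318) and Fcmr, the IgM receptor (0.61 ± 0.18, adjusted p = 0.0483); of 33 myeloid genes 1 rose, and of 10 mast cell genes 0 passed in limma (4 higher at an unadjusted p under 0.05). Of 11 MHC class II presentation genes 1 rose (median 0.45; 6 higher at an unadjusted p under 0.05), and of 9 class I genes 0 did (4 higher at an unadjusted p under 0.05). The class I mean ranged from -1.09 to 0.48 in DKO villi, in which DKO 4 and 5 were low and the other 3 high, and from -1.26 to -1.05 in Rb KO villi. Its member H2-Q2 had the same split on a far larger scale, at 12.58, 11.52 and 11.77 in DKO 1 to 3 and 3.72 and 3.25 in DKO 4 and 5. The median difference of the class I list was 0.33.

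**Figure D4:**
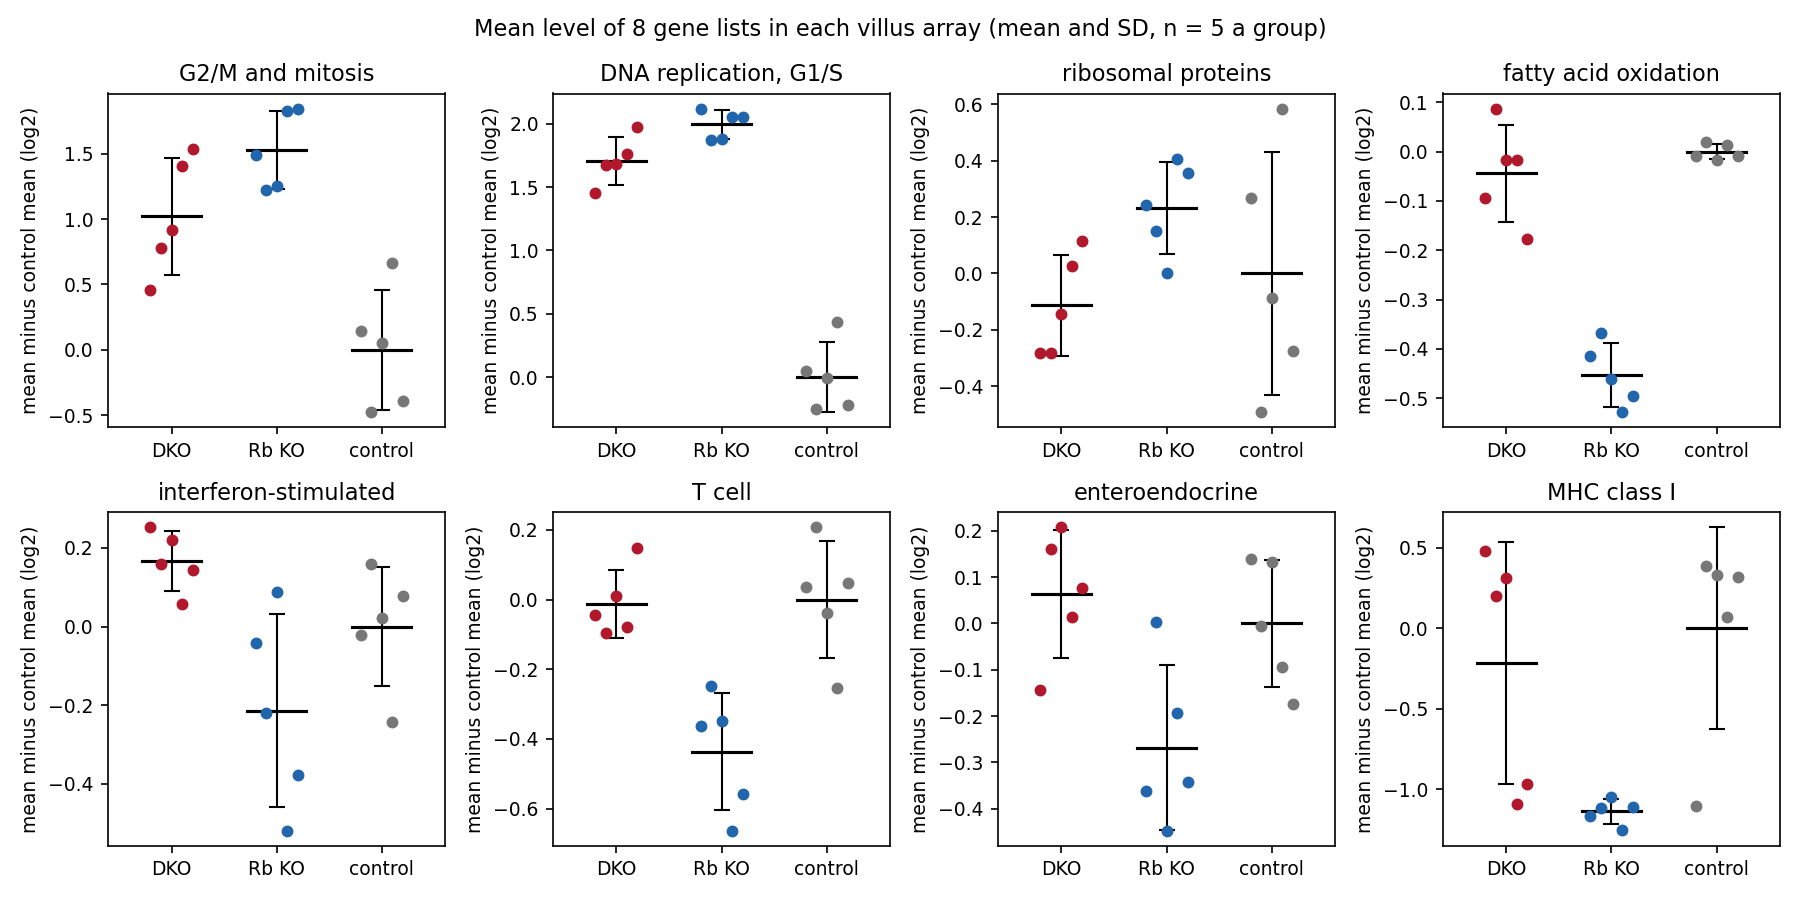
Mean level of 8 gene lists in each villus array, minus the control mean (log2, vertical axis, each panel with its own range), with DKO left, Rb KO in the middle and control right; points are arrays, the long bar the mean and whiskers the SD (n = 5 a group). The fatty acid oxidation panel shows DKO arrays from -0.18 to 0.09 and Rb KO arrays from -0.53 to -0.37, while the mitosis panel shows DKO from 0.46 to 1.54 and Rb KO from 1.23 to 1.84, with control from -0.48 to 0.66.

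Secretory lineages of the epithelium were next. Of 37 enteroendocrine genes 8 rose (21.6%, beside 6.03% of all genes) and 0 fell (median 0.32). Gcg, which encodes the glucagon-like peptides of L cells, stood at 7.09, 7.27, 7.48, 7.28 and 7.5 in DKO villi, against 5.81, 5.94, 5.36, 6.84 and 6.38 in Rb KO villi, with no overlap. It rose by 1.26 ± 0.23 (adjusted p = 0.00524), and controls averaged 7.74. Gip, the incretin of K cells, rose by 0.69 ± 0.17 (adjusted p = 0.0215), and the granule proteins Scg2 by 0.78 ± 0.18 (adjusted p = 0.017) and Scg5 by 0.71 ± 0.18 (adjusted p = 0.0255), all 3 with overlapping groups. The count was 2 without DKO 2 or DKO 3, 3 without Rb KO 3 or Rb KO 5, and 1 without Rb KO 4 and 5 together.

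Of 22 genes of tuft cells, the chemosensory cells, 4 rose (18.2%, beside 6.03% of all genes). Among the 4 were Fyb (0.44 ± 0.08, adjusted p = 0.00657) and the leukotriene synthase gene Ltc4s (0.54 ± 0.11, adjusted p = 0.0107), both also expressed in leukocytes. The number of tuft cell genes that rose was 1 without Rb KO 4 and 5 together and 2 without DKO 3, DKO 5, Rb KO 1, Rb KO 2 or Rb KO 5. Of 15 Paneth cell genes 3 rose (20%), and of 24 goblet genes 1 did (4.17%), beside 6.03% of all genes. Reg4, a lectin of deep secretory cells, stood at 11.32, 11.41, 11.43, 11.49 and 11.32 in DKO villi, against 10.65, 11.04, 10.31, 10.96 and 10.45 in Rb KO villi, and rose by 0.71 ± 0.14 (adjusted p = 0.00885). Clps, colipase, a cofactor of pancreatic lipase that Paneth cell and pancreas lists share, stood at 9.77, 9.99, 10.17, 10.31 and 9.96 in DKO villi, against 8.53, 9.19, 8.53, 8.93 and 8.47 in Rb KO villi. It rose by 1.31 ± 0.14 (adjusted p = 0.000135).

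Of 22 exocrine pancreas genes 5 rose (22.7%, beside 6.03% of all genes), including Clps, Cela1, an elastase (0.71 ± 0.14, adjusted p = 0.00831), and Pnliprp2, a lipase relative (1.18 ± 0.24, adjusted p = 0.00909). The list's mean ranged from -0.27 to 1.04 in DKO villi and from -0.29 to 0.04 in Rb KO villi, and its summed level was 16.08 to 16.17 in DKO villi and 16.09 to 16.20 in Rb KO villi. The number that rose was 10 without DKO 2, and 3 without Rb KO 1, Rb KO 2, DKO 1, DKO 3 or DKO 4. The part of pancreatic tissue in these rises was not tested. Of 25 stem cell genes 2 rose (8%, beside 6.03% of all genes), Hopx (0.45 ± 0.09, adjusted p = 0.00674) and Rnf43, a ligase that removes Wnt receptors (0.55 ± 0.15, adjusted p = 0.0348), and the Wnt target Axin2 differed by 0.32 ± 0.13 (adjusted p = 0.151).

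Some of the clearest single differences lay outside these lists. Sdc2, syndecan-2, a heparan sulphate proteoglycan of the cell surface, had the smallest adjusted p of all genes and was picked for that. It stood at 7.79, 7.74, 7.63, 7.89 and 7.75 in DKO villi, against 6.46, 6.52, 6.65, 6.63 and 6.80 in Rb KO villi, a rise of 1.15 ± 0.09 (adjusted p = 1.3e-05). Control villi averaged 6.84, near the Rb KO level. Tpmt, thiopurine methyltransferase, also picked for its p, rose by 0.94 ± 0.08 (adjusted p = 1.75e-05), with controls (9.33) between the groups. Cpq, a peptidase gene next to Sdc2, rose by 1.09 ± 0.11 (adjusted p = 0.000135), and its control mean of 8.90 was at the DKO level of 8.79.

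Bmp4, a secreted signal of the BMP family that opposes crypt formation in the villus, was among the largest rises. It stood at 7.60, 8.55, 8.47, 8.31 and 8.15 in DKO villi, against 6.22, 6.38, 6.70, 6.44 and 6.52 in Rb KO villi, and rose by 1.76 ± 0.17 (adjusted p = 0.000111). Control villi averaged 6.34, beside the Rb KO level. Of the 28 BMP and hedgehog genes it was the 1 that passed (3.57%, beside 8.06% of all genes). Adgrg2, an orphan adhesion receptor picked for its p, showed the same order, with 6.51, 7.07, 7.31, 6.61 and 6.86 in DKO villi, against 5.25, 5.39, 5.52, 5.02 and 5.20 in Rb KO villi and a control mean of 5.41 (rise of 1.60 ± 0.17, adjusted p = 0.000135). Fah, fumarylacetoacetate hydrolase of tyrosine breakdown, rose by 1.92 ± 0.23 (adjusted p = 0.000411), with means of 8.23 in DKO villi, 6.31 in Rb KO villi and 7.19 in control villi. Its controls were split, with control 1 at 6.0 and controls 2 to 5 at 7.31 to 7.63. Sccpdh rose by 1.68 ± 0.29 (adjusted p = 0.00381), with a control mean of 10.66 and a DKO mean of 10.72. Its control 1, at 9.24, lay within the Rb KO range of 8.75 to 9.26, and controls 2 to 5 stood at 10.73 to 11.29. G0s2, an inhibitor of fat breakdown by ATGL, rose by 1.66 ± 0.28 (adjusted p = 0.00368).

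Among genes past the threshold, each read from its probe set of highest mean, Hddc3 had the largest rise and Trim30d the largest fall. Hddc3, a nucleotide phosphohydrolase, stood at 9.25, 9, 9.91, 9.91 and 9.34 in DKO villi, against 6.22, 6.05, 6.11, 5.95 and 6.11 in Rb KO villi, a rise of 3.40 ± 0.47 (adjusted p = 0.000889). Averaged over all its probe sets the rise was 1.87. Klrb1a, a C-type lectin receptor of NK cells, rose by 2.54 ± 0.40 (adjusted p = 0.00236) and Zfp949, a zinc finger gene, by 2.44 ± 0.37 (adjusted p = 0.00189). In the other direction Trim30d, a member of an interferon-linked family of ubiquitin ligases, stood at 8.16, 8.36, 7.99, 8.06 and 7.90 in DKO villi, against 11.58, 11.47, 11.60, 11.46 and 11.32 in Rb KO villi. It fell by 3.39 (difference -3.39 ± 0.49, adjusted p = 0.00127). Its neighbours Trim34a (-2.70 ± 0.40, adjusted p = 0.00172), Trim30a (-2.09 ± 0.31, adjusted p = 0.0015) and Trim12a (-0.82 ± 0.18, adjusted p = 0.0121) fell too, while Trim12c, between them, rose by 0.49 ± 0.12 (adjusted p = 0.0243; picked after its values were seen). A dimmer Trim12a probe set differed by -4.65 (adjusted p = 0.000951), a larger fall than that of Trim30d. Another Trim34a probe set rose by 1.33 (adjusted p = 0.00173), so its probe sets disagree. These genes resemble each other closely enough that probe sets may read more than 1 of them.

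Genes that fell by less included Myo7a, a myosin of sensory hair bundles and microvilli (-1.46 ± 0.25, adjusted p = 0.00374), which lies next to Aqp11 in the reference gene order, Snhg6, a noncoding host of a small nucleolar RNA (-1.17 ± 0.20, adjusted p = 0.00386), Clmn, calmin (-1.06 ± 0.20, adjusted p = 0.00723), and Paqr8, a membrane progesterone receptor (-1.05 ± 0.12, adjusted p = 0.000377). For Snhg6 and Paqr8 the control means of 8.14 and 6.14 stood with the DKO means of 7.94 and 6.01. Control 1 of Snhg6, at 8.84, lay within its Rb KO range of 8.79 to 9.51.

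The control arrays and the gene order add 2 facts about these genes. Of 57 genes that passed, were apart and differed at least 2-fold, 18 had control array 1 on the Rb KO side and controls 2 to 5 on the DKO side; for controls 2, 3, 4 and 5 in that place the numbers were 0, 0, 0 and 1. Hddc3 and Trim30d show it: control 1 stood at 6.09 for Hddc3 and 11.54 for Trim30d. Klrb1a, Zfp949, Fah, Sccpdh, Nkg7, Cdkn1b, Trim34a, Trim30a, Myo7a and Snhg6 are others with this order. Of all 875 genes that passed and were apart, 101 had this order, against 7, 2, 58 and 21 for the other controls. All 5 controls lay on the DKO side for 383 of the 875 and on the Rb KO side for 69. In the gene order of GRCm38.p6, 28 of the 65 genes with a change of at least 2-fold (43.1%) had a called gene as a direct neighbour, against 15.4% of 14529 genes placed. Examples are Sdc2 with Cpq, Acot1 with Acot2, Ccnd2 with Tigar, Cdkn1b with Lockd, Hddc3 with Man2a2, and the Trim genes. Man2a2, picked for its p, rose by 1.32 ± 0.14 (adjusted p = 0.000149). Around Myc itself 3 of the 40 nearest tested genes passed (7.5%) and around Rb1 4 (10%), beside 8.06% of all genes, against 7 (17.5%) around Sdc2, 7 around Hddc3 and 6 (15%) around Trim30d. Each of these counts covers only the 20 tested genes on either side, so it does not reach a linked stretch further along the same chromosome. Strain differences near selected alleles were not tested and, with no strain in the labels, cannot be told apart from genotype.

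The effect of Myc loss in villi was then set against that in crypts of the same study, as a test of the difference between the 2 effects over all 30 arrays. It passed for 490 of 14557 genes (3.37%), 331 with the larger value in villi (2.27%) and 159 with the larger in crypts (1.09%), and for 1446 when a villus and a crypt array sharing genotype and number were treated as 1 animal. Myc was one of them, with -0.52 in villi and -1.60 in crypts (difference of effects 1.08 ± 0.28, adjusted p = 0.0311). In crypts alone 1750 genes (12%) passed, 726 higher (4.99%) and 1024 lower (7.03%), and the rises therefore outnumbered the falls in villi but not in crypts.

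Sdc2 had the larger effect in villi, at 1.15 in villi and 0.19 in crypts (adjusted p of the difference 0.000302), and so had Cpq, at 1.09 and 0.09 (adjusted p = 0.000325), and Adgrg2, at 1.60 and 0.44 (adjusted p = 0.00284). Klrb1a (2.54 and 0.22, adjusted p = 0.00406), Vnn1 (1.64 and -0.26, adjusted p = 0.0135) and Decr2 (0.69 and 0.001, adjusted p = 0.00599) likewise had the larger effect in villi. The filter value of 5.11 was set on villus means. Klrb1a stood below it in every crypt array, controls included (3.55 to 4.16), so its effect in crypts could hardly be read. Adgrg2 stood near it there (4.63 to 5.53). Of the mitotic genes, Cenpm (-0.42 and 0.06, adjusted p = 0.0177) and Ndc80 (-0.49 and 0.16, adjusted p = 0.0236) had the lower value in villi. No difference between the tissues passed for Bmp4 (1.76 and 1.86, adjusted p = 0.879), Man2a2 (1.32 and 1.36, adjusted p = 0.928), Cdkn1b (1.17 and 1.17, adjusted p = 0.998), Hddc3 (3.40 and 3.02, adjusted p = 0.795) or Trim30d (-3.39 and -5.47, adjusted p = 0.228). For Bmp4 the standard errors were 0.17 in villi and 0.21 in crypts, and the difference between the effects was -0.10 ± 0.29.

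**Figure D5:**
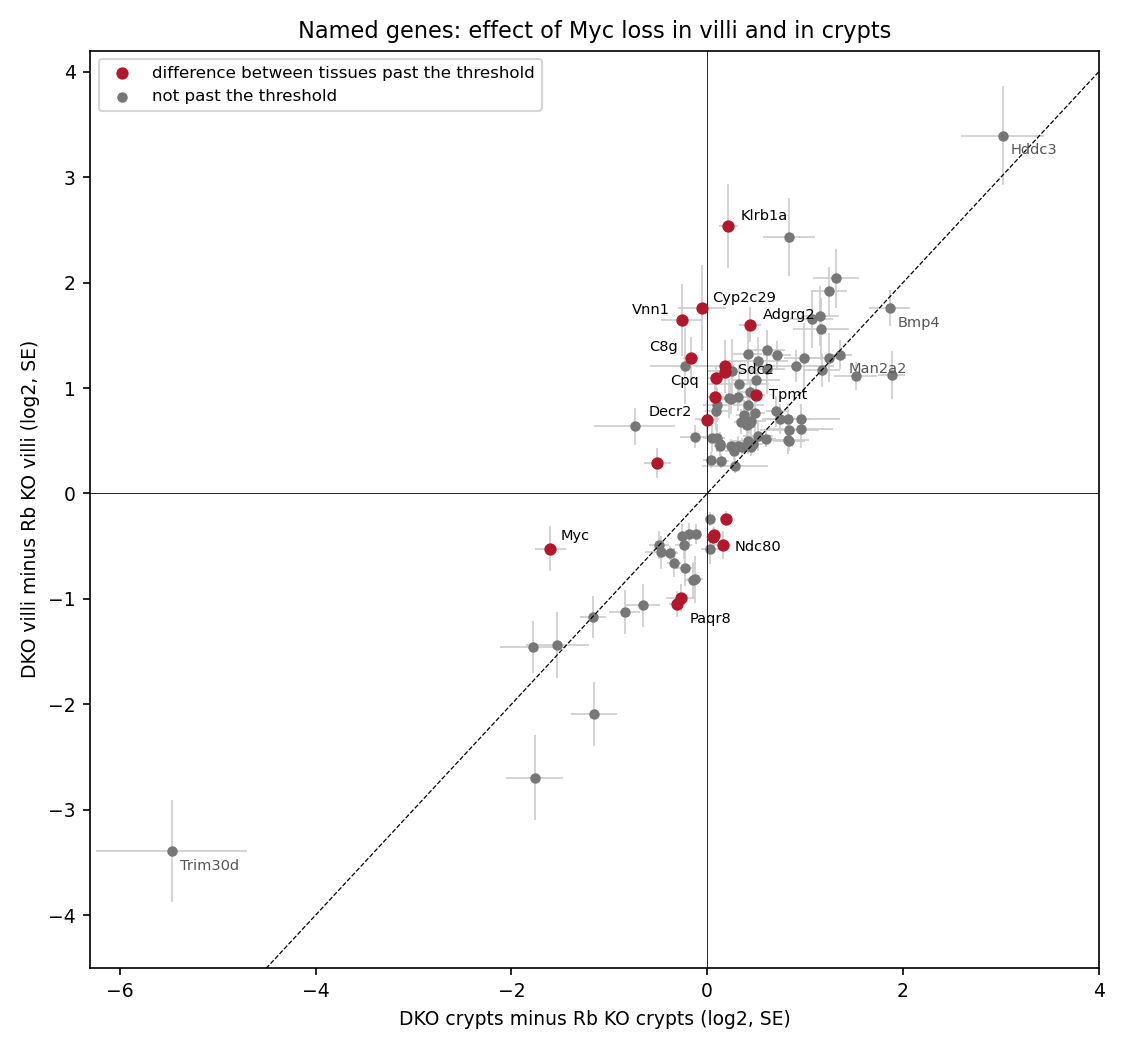
Each point is a gene named in the text that passed the threshold in villi or in the test between tissues, with the DKO minus Rb KO difference in crypts on the horizontal axis and in villi on the vertical axis (log2; thin bars are SE), and the dashed line marks equal effects. Red genes differ between tissues past the threshold, with Myc at -0.52 in villi and -1.60 in crypts, and Bmp4, Man2a2 and Hddc3 lie close to the line.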

How the data were processed

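RNA of villi and crypts was measured on 30 expression arrays, of which the 15 villus arrays were fitted together. The values are log2 expression per probe set as deposited by the authors; their normalization is not given in the sources used here. The 45101 probe sets were named through the platform annotation (34958 with 1 symbol, 932 with several, 9211 with none), and each gene was read from the probe set of its own with the highest villus mean, which left 18194 genes. Genes whose villus mean lay above the 30th percentile (5.11) were tested, 14557 in all, with limma 3.58.1 in R 4.3.3 (lmFit and eBayes on 3 groups, Benjamini-Hochberg threshold 0.05, two-sided). The fit was tested on simulated data. Villi and crypts, which appear normalized separately, were compared through an interaction over 30 arrays. Myc, Rb1 and the array readings also had exact permutation tests. A list is described by counts and its median, with no test. Figures were drawn with matplotlib 3.10.9.

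Genes were named by rule: Rb1 and Myc, the 12 largest differences each way among genes past the threshold with arrays apart, the 4 smallest p-values of each list with at least 2 members past it, and the Myc, E2F and stem lists; others are said to be picked after their values were seen. The members and lists were chosen with earlier results of these data known. Alternatives covered probe set choice, filter, normalization, arrays fitted, covariates and single arrays left out.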

Additional observations from a re-analysis of the deposited data

Results flagged for a closer look

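For 19 genes named in the text, 2 of them (C8g and Rbp4) among the closing observations, the difference between the effect of Myc loss in villi and that in crypts passed the threshold in limma over all 30 arrays. The value was positive for 13 of them, at 2.32 for Klrb1a, 1.90 for Vnn1, 1.81 for Cyp2c29, 1.46 for C8g, 1.16 for Adgrg2, 1.08 for Myc, 1.02 for Rbp4, 1.00 for Cpq, 0.96 for Sdc2, 0.83 for Usp18, 0.80 for Mxi1, 0.69 for Decr2 and 0.44 for Tpmt. It was negative for 6, at -0.74 for Paqr8, -0.72 for Lockd, -0.65 for Ndc80, -0.48 for Cenpm, -0.47 for Tnfrsf10b and -0.43 for E2f5. Myc and Mxi1, whose villus differences did not pass, are in this group. Klrb1a lay below the filter value of 5.11 in every crypt array, and Adgrg2 lay near it. Villus and crypt arrays of 1 genotype and number correlated at 0.228 to 0.524 over 10 pairs, which this fit does not use; with the animal as a random block 41 named genes passed, all 19 among them, and 22 more, such as Zfp949 (adjusted p = 0.0103), Ifit3 (0.0133), Smc4 (0.022) and Ccnd2 (0.036).

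In 9 of 258 groups of 5 arrays, formed by the named genes and the means of 10 lists in DKO and in Rb KO villi, 1 array lay far from the other 4 (gap over range at least 0.71, Dixon's value for groups of 5). Chance gives about 1 in 20 groups. Rbp4 was high in DKO 1 (9.42) and Myo7a high in DKO 5 (8.26). Mybbp1a (8.55) and Tigar (6.83) were low in DKO 2, and DKO 1 was low for Acadl (12.22) and Nnt (9.24). Among Rb KO villi, Rrm2b was high in array 1 (7.06), Cyp4b1 low in array 1 (10.27) and Fah low in array 4 (6.01). The cause was not tested.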

How the results depend on the processing

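The 1173 genes past the threshold (878 higher, 295 lower) became 2030 (1503 and 527) with every probe set tested on its own, 2103 (1393 and 710) with all 30 arrays in the fit, 2546 (1448 and 1098) with the crypt marker score in the model, 583 (439 and 144) without Rb KO 4 and 5 together, 261 (219 and 42) at an adjusted p of 0.01 and 65 (54 and 11) at a change of at least 2-fold. Leaving out 1 DKO or Rb KO array gave 572 to 981 in all, 456 to 756 higher and 116 to 225 lower; fewer arrays enter these fits. Leaving out control 1 gave 1240 (918 and 322). With sex, read from Xist, as a covariate 1420 passed (1013 and 407). With the GAPDH 3' minus 5' probe set reading of each array as a covariate 1147 passed (843 and 304), of which 809 were among the 1173. That reading differed by -0.0436 between DKO and Rb KO villi (exact permutation p = 0.0635, two-sided), and the same reading of Actb by -0.0439 (p = 0.0794, same test). Higher genes outnumbered lower ones in every setting run. Their share of 74.9% was 64.8% after quantile normalization (701 and 381), 66.2% with all 30 arrays and 83.9% at an adjusted p of 0.01. The 490 genes that differed between villi and crypts became 1446 with the animal as a random block, 86 at an adjusted p of 0.01, and 200 to 447 without 1 replicate number of a genotype: 235 without Rb KO 2, 245 without Rb KO 3, 288 without Rb KO 4, 262 without DKO 1, 200 without DKO 3, 261 without DKO 4 and 292 without DKO 5. Averaged over its probe sets, Tigar was -0.065, against 0.44.

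DKO and Rb KO villi share replicate numbers, but same-numbered arrays correlated at only 0.059, 0.209, 0.005, 0.175 and 0.255 in their deviations, and 2 of 5 DKO arrays matched their own number best. The numbers were therefore not taken to pair the samples; with the replicate block 1392 genes passed (1013 higher, 379 lower).

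The precision is limited by 5 arrays a group, by a normalization that is not given, and by probe sets that can read near-copies (Acot, Cyp2c, Trim30, Oas1 and H2 genes).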

Other observations

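A few more genes are given as values; they were picked after their values were seen and stand for no list. Afp, alpha-fetoprotein, rose by 1.04 ± 0.19 (adjusted p = 0.00574, limma), with means of 10.73 in DKO villi, 9.70 in Rb KO villi and 10.83 in control villi. C8g (1.29 ± 0.20, adjusted p = 0.00221), Rbp4 (1.21 ± 0.25, adjusted p = 0.0114) and Crp (1.12 ± 0.13, adjusted p = 0.000377) rose too, and all 4 were apart from Rb KO villi. Mbl2, a lectin of complement, rose by 1.16 ± 0.31 (adjusted p = 0.0323), and its control mean of 8.01 lay by the Rb KO mean of 8.21 instead. Me1, malic enzyme, rose by 1.07 ± 0.21 (adjusted p = 0.00757). Nnt, which makes mitochondrial NADPH, rose by 1.29 ± 0.23 (adjusted p = 0.005), and control 1, at 8.54, lay within the Rb KO range of 8.01 to 8.64, while controls 2 to 5 stood between 9.36 and 10.15.

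The largest mean differences that did not pass came from genes that were on in some arrays and off in others. H2-Q2, an MHC class I gene with near-copies, stood at 12.58, 11.52, 11.77, 3.72 and 3.25 in DKO villi, against 3.28, 3.36, 3.69, 3.29 and 3.59 in Rb KO villi and 3.38, 12.39, 12.22, 11.87 and 12.53 in control villi. The difference was 5.13 ± 1.97 (adjusted p = 0.123, limma). Crypts of the same DKO numbers showed the same split, at 10.89, 9.94, 9.09, 3.59 and 3.58. Retnlb, a goblet cell protein induced by microbes and worms, stood at 4.49, 9.79, 11.26, 12.22 and 4.65 in DKO villi and between 4.40 and 4.67 in all Rb KO villi, with a difference of 3.92 ± 1.42 (adjusted p = 0.103). Control villi held it at 4.51, 4.74, 9.66, 5.84 and 9.22. The MHC class II genes H2-Ab1 (1.54 ± 0.51, adjusted p = 0.0736) and H2-Aa (1.42 ± 0.50, adjusted p = 0.09) did not pass either.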
